A study of Homo sapiens with 6 samples.

Results

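The genes described here are those encoded by the human mitochondrial chromosome, measured in MCF10A cells with and without raised flotillins. They were taken as the rows of the authors' deposited table of group means whose gene symbol starts with MT-, which gave 13 of 52401 rows. Of these 13 rows, 12 are protein-coding genes on the mitochondrial chromosome and 1 lies on chromosome 2. A further 25 rows lie on the mitochondrial chromosome without such a symbol, so that 37 rows in all are located there: 13 mRNA, 2 rRNA and 22 tRNA genes. They are named here by their Ensembl identifiers, through a table of current symbols.

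MCF10A is an immortalised, non-tumorigenic human breast epithelial line. The control group was an MCF10A line stably expressing the fluorescent protein mCherry from 1 retroviral vector under puromycin selection, with 3 libraries. The flotillin group was an MCF10A line with 2 retroviral vectors, for stable co-expression of Flotillin1-HA and Flotillin2-mCherry, under puromycin and hygromycin selection, with 3 libraries. Both lines carry mCherry, free or fused, and both were kept in a DMEM/F12 medium with horse serum, insulin, EGF, hydrocortisone and cholera toxin. The effects of flotillins, of the second vector and of hygromycin cannot be told apart in this design. The sources used here do not give whether a line is 1 clone or a pool. They also do not say whether libraries of 1 group are separate cultures, and p-values then cover no more than the spread among these libraries, possibly a technical one.

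The mitochondrial chromosome is a small circle that encodes subunits of complexes I, III, IV and V of the respiratory chain, together with the rRNAs and tRNAs that translate them inside the organelle. Each strand is transcribed as a long precursor from which tRNAs are excised, releasing the mRNAs and rRNAs between them, so the level of each mature RNA depends on processing and stability as well as on transcription. All other respiratory chain subunits, complex II included, and all proteins that copy, transcribe and translate the chromosome are encoded in the nucleus and imported. The libraries came from a stranded kit that selects polyadenylated RNA. Most human mitochondrial mRNAs carry short poly(A) tails, while tRNAs do not, so rRNA and tRNA values here are those of RNA that passed this selection.

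The row labelled MT-ATP8 in the deposited tables is not the mitochondrial gene. Its identifier is ENSG00000229604, its feature type is pseudogene, and its locus is on chromosome 2 (88045921 to 88125471 in GRCh37, a locus that joins several genes). The current symbol of that identifier is MTATP8P2, a nuclear copy. The mitochondrial MT-ATP8 has the identifier ENSG00000228253 and stands in the tables under a clone-based symbol. Both sequences follow, from GENCODE transcripts in GRCh38, because the label decides whether complex V loses a called member; capitals mark the bases at which they differ.
MT-ATP8: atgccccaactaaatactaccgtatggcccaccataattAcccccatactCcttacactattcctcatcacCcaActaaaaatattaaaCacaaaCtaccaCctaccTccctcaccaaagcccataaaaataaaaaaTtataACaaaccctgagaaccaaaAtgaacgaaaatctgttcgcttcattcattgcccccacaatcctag
MTATP8P2: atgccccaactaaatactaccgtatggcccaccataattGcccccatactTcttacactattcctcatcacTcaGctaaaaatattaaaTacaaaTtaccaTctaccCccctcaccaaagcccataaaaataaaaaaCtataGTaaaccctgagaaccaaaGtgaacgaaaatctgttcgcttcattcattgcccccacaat
Over 202 aligned bases the sequences differed at 12 positions and were 94.1% identical. Counted from 1 at the first base of MT-ATP8, with its base first and the copy's base last, the differences run from A40G to A162G. The row on chromosome 2 was listed at 3.79, 14.3 and 2.96 normalized counts in the control libraries and at 1.00, 3.04 and 1.03 in the flotillin libraries. The mitochondrial gene averaged 32646 and 15821 normalized counts in the same groups. In the following, MT-ATP8 means the mitochondrial gene.

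Neighbouring genes share bases in 2 pairs that are each translated from 1 mRNA. MT-ATP8 ends inside MT-ATP6 with a shared stretch of 46 bases, and MT-ND4L ends inside MT-ND4 with 7 shared bases. The ends of the upstream genes are printed because reads there cannot be given to 1 gene by position; capitals mark the shared bases.
End of MT-ATP8: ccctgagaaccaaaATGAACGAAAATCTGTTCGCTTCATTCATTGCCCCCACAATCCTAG
End of MT-ND4L: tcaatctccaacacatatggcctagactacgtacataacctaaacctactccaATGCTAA
The counting rule for such reads is not stated in the sources used here. The members of each pair are therefore not separate measurements over these bases.

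FLOT1 and FLOT2, the targeted genes, were 11.4-fold and 11-fold higher in the flotillin line. Of the markers checked, the epithelial genes CDH1 and EPCAM and the basal keratin gene KRT14 were lower and the mesenchymal genes VIM and FN1 were higher in that line, each called by the authors' deposited adjusted p, while KRT5 was 1.39-fold higher with an adjusted p of 0.240. The deposited values are group means, but whole-number counts of the single libraries could be solved from the means of 99.7% of genes in each group. These libraries are called 1 to 3 in order of falling size factor, an order that pairs nothing. Their counts over the solved genes sum to between 19091474 and 20485528. The counts are not raw reads: in control library 1, 2560 genes have a count of 1, 25 a count of 2 and 1280 a count of 3. Such gaps fit a multiplication by 0.865 to 1.36, depending on the library, and rounding before deposit, so the sums are not sequencing depths. Library 3 of each group stood apart. Its values for 12 cell cycle genes were 489% to 919% of the mean of libraries 1 and 2 in the control group and 360% to 645% in the flotillin group. Mitochondrial values without these libraries exist for 4 mRNAs and 7 tRNAs, given below. The called mRNAs MT-CO2, MT-CO3, MT-ATP6 and MT-ND4 have no library values.

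Mitochondrial mRNAs were lower in the flotillin line at 12 of 13 genes. The authors' deposited table called 6 of the 13 lower and 0 higher, a call being an adjusted p under 0.05. By symbol, 5 of the 13 rows that start with MT- were called lower, and the sixth call is MT-ATP8. With p readjusted over all 28838 genes that have one, 2 of the 5 passed, MT-CO2 and MT-ATP6. The sixth, MT-ATP8, passed as well (readjusted p = 0.00735). Over all 19733 tested genes, 12% were called lower, and over the 111 that average at least 20000 normalized counts, 24.3%. The 111 include the mitochondrial mRNAs and rRNAs themselves. The median log2 fold change of the 13 mRNAs was -0.68, against -0.04 over all tested genes. The 96 of the 111 genes that are not mitochondrial had a median of 0.41, and 40 of the 96 were lower. They share the minimum mean of 20000 with the mitochondrial genes but were not matched to them in abundance. In bulk samples, fewer cells of a type and less RNA per cell cannot be told apart.

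**Figure D1:**
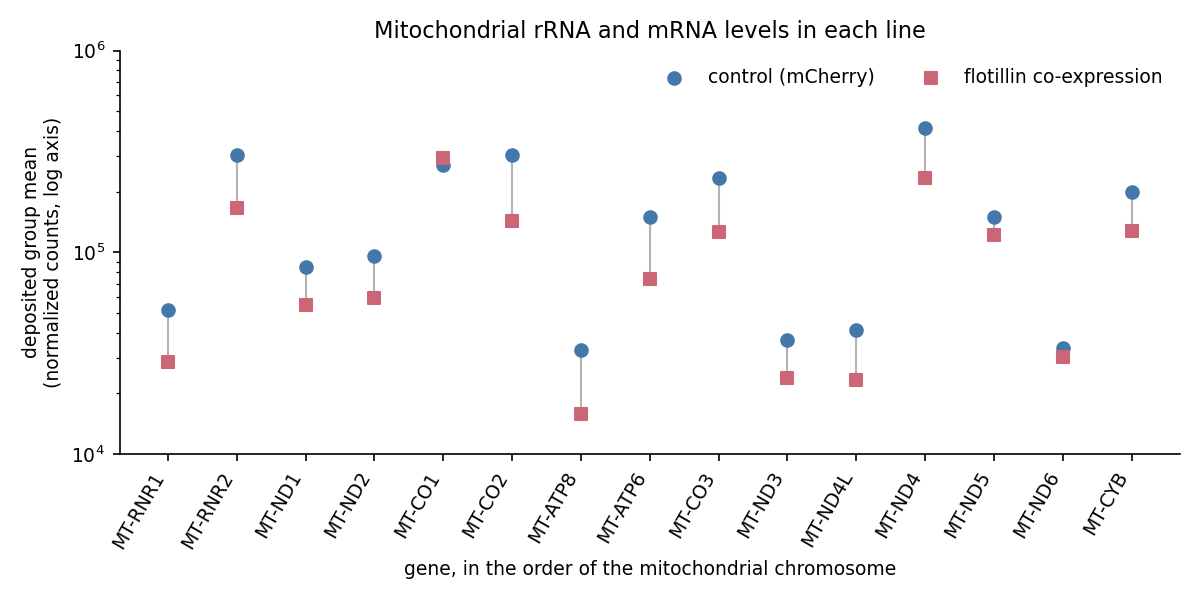
Deposited group means, in normalized counts on a log axis, of the 2 rRNAs and 13 mRNAs in the order of the mitochondrial chromosome; circles are the control line, squares the flotillin line, and grey lines join the means of a gene. Every flotillin mean lies under the control mean except that of MT-CO1.

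Complex IV, cytochrome c oxidase, has 3 mitochondrial subunits, of which 2 were called lower. MT-CO2 (chromosome MT, 7586 to 8269 in GRCh37), which encodes the subunit that receives electrons from cytochrome c, fell from a group mean of 303094 to 142551 normalized counts. Its log2 fold change in the authors' deposited table was -1.03 (95% interval -1.67 to -0.40, adjusted p = 0.00941), the largest fall among the mitochondrial mRNAs. MT-CO3 (in a locus that also holds MT-ATP8 and MT-ATP6, 8366 to 9990), a core subunit without redox centres, fell from 234211 to 126209, with a log2 fold change of -0.85 (-1.47 to -0.23, adjusted p = 0.0355). MT-CO1 (5904 to 7445), which holds the oxygen-binding site, was at 271525 in control and 292111 in flotillin cells. Its deposited log2 fold change was 0.02 with an interval from -1.20 to 1.25 (adjusted p = 0.981), so neither a 2-fold fall nor a 2-fold rise lies outside it. Intervals here and below come from the error that the authors' fold change and its p imply together, read as a two-sided normal test.

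Both mitochondrial subunits of complex V, the ATP synthase, fell by about the same amount. MT-ATP6, the membrane subunit that forms part of the proton path, went from 149047 to 73684 normalized counts, to 49.4% of control. In the authors' deposited table its log2 fold change was -0.97 (-1.55 to -0.39, adjusted p = 0.00735). MT-ATP8, a short membrane subunit whose reading frame runs into that of MT-ATP6, went from 32646 to 15821, to 48.5% of control. Its deposited log2 fold change was -1.002 (-1.58 to -0.43, adjusted p = 0.00503), the smallest adjusted p among mitochondrial genes.

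Complex I, NADH dehydrogenase, has 7 mitochondrial subunits in its membrane arm, and 2 of them were called. MT-ND4 (in a locus with MT-ND4L, 10470 to 12137), one of the antiporter-like proton-pumping subunits, fell from 411962 to 234468 normalized counts, with a deposited log2 fold change of -0.78 (-1.38 to -0.18, adjusted p = 0.0475). MT-ND4L, a small subunit read from the same mRNA, fell from 41277 to 23241, with -0.79 (-1.39 to -0.19, adjusted p = 0.0431). MT-ND2 (4470 to 5511), another antiporter-like subunit, had means of 96307 and 58998 and a deposited log2 fold change of -0.68 (-1.24 to -0.12), but its adjusted p was 0.0673. MT-ND3 (10059 to 10404) had means of 36860 and 23828, and MT-ND1 (3307 to 4262), at the base of the arm near the quinone site, 84576 and 54483. Their deposited log2 fold changes were -0.60 (adjusted p = 0.172) and -0.59 (adjusted p = 0.253).

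The smallest differences in complex I were those of MT-ND5 and MT-ND6. MT-ND5 (12337 to 14148), the third antiporter-like subunit, had means of 150436 and 121876, a deposited log2 fold change of -0.29 and an interval from -0.88 to 0.30 (adjusted p = 0.518). MT-ND6 (14149 to 14673) is the only mRNA read from the other strand, the light-strand transcript. Its means were 33353 and 30141, with a deposited log2 fold change of -0.14 and an interval from -0.73 to 0.45 (adjusted p = 0.779). Whether the differences of MT-ND5 and MT-ND6 are smaller than those of the called genes was not tested. Complex III has 1 mitochondrial subunit, cytochrome b: MT-CYB (14747 to 15887) had means of 199615 and 127494, with a log2 fold change of -0.61 (-1.26 to 0.03, adjusted p = 0.165) in the authors' deposited table.

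**Figure D2:**
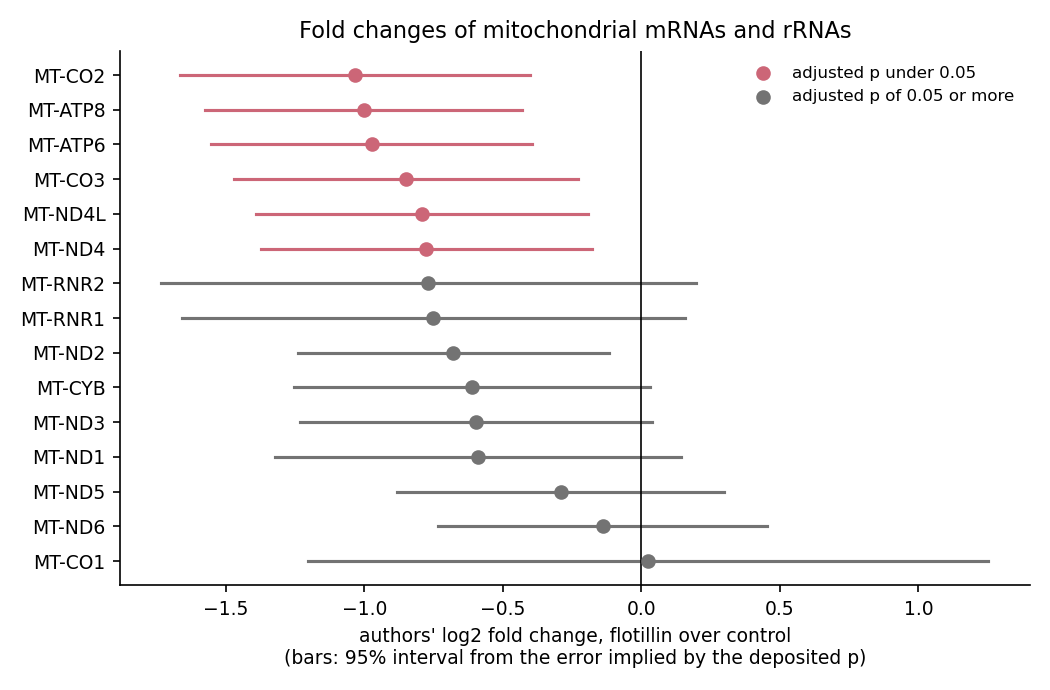
The authors' log2 fold changes of flotillin over control for 13 mRNAs and 2 rRNAs, with 95% intervals from the error implied by the deposited p; red marks an adjusted p under 0.05. The 6 called genes lie between -1.03 and -0.78, and the interval of MT-CO1 is the widest, from -1.20 to 1.25.

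Per length, the order of the mRNAs differed between the lines at the top. In normalized counts per kilobase, MT-CO2 was highest in control cells at 443120, followed by MT-ND4 at 298956 and MT-CO3 at 298738. In flotillin cells MT-CO2 was at 208408, MT-CO1 at 189437, MT-ND4 at 170151 and MT-CO3 at 160981 per kilobase. MT-ND6 was lowest in control cells at 63530 per kilobase. In flotillin cells MT-ND2 at 56620, MT-ND1 at 56990 and MT-ND6 at 57412 per kilobase were the lowest. Group means carry no spread, so it is not known which neighbours in this order differ.

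MT-CO1 accounted for 13.3% of mitochondrial mRNA counts in control and 22.0% in flotillin cells. Its error was also unusual: the error of the log2 fold change implied by the deposited p was 0.63, a size reached by 1.35% of the 11357 genes examined, while the other 12 mRNAs had 0.29 to 0.37. The control mean of MT-CO1 is given by 2112 sets of whole-number library counts, so its library values are not known. Exactly 1 of these sets has a library at 0: 500030 in control library 1, 0 in library 2 and 314546 in library 3. Among the 117 control means above 20000 this was the only one with such a set, and among the 126 flotillin means above 20000 there was none. These include the other 14 mitochondrial mRNA and rRNA means in control and 14 such means, MT-CO1 among them, in flotillin cells. If library 2 held no count, the other control libraries averaged 407288, the flotillin mean was 71.7% of that, and the log2 ratio was -0.48 in place of the deposited 0.02. That value rests on 2 control libraries and has no test. Over all the means searched, 0.145 sets with a library at 0 were expected by chance in control and 0.0966 in flotillin cells. Which of the 2112 sets holds is not known, and whether library 2 held no count was not tested.

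Nuclear copies of mitochondrial genes have library values of their own, which are not those of MT-CO1. A stretch of chromosome 1 (a locus from 465694 to 688071 in GRCh37) holds copies of several mitochondrial genes. All 11 rows of that locus with a mean above 1 were at exactly 0 in control library 2 and above 0 in the other control libraries and in every flotillin library. MTATP6P1, 98.5% identical to MT-ATP6, was at 7524, 0 and 6184 normalized counts in the control libraries and at 5103, 5046 and 3394 in the flotillin libraries. MTCO1P12, 98.7% identical to MT-CO1, was at 1075, 0 and 716 in control and at 1023, 886 and 477 in flotillin libraries. MTND2P28 was at 1852, 0 and 1625 in control and at 1375, 1237 and 998 in flotillin libraries. For these 3 copies the implied errors of the deposited log2 fold change were 0.68, 0.70 and 0.70. Those of MT-ATP6, MT-CO1 and MT-ND2 themselves were 0.30, 0.63 and 0.29. Whether library values of a copy carry over to its mitochondrial gene was not tested. Genes at exactly 0 in 1 library with at least 100 in both others numbered 4, 10 and 10 over the control libraries and 6, 8 and 7 over the flotillin libraries, and 5 of the 10 in control library 2 lay in this locus.

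One nuclear copy outside that locus passed the test. MTND4P12, on chromosome 5 (locus 134240596 to 134347392) and 95.7% identical to MT-ND4, fell from 10068, 10714 and 6394 normalized counts in control to 5631, 5090 and 3464 in flotillin libraries. The group means were 9058 ± 2330 and 4728 ± 1128 (SD, n = 3), and the deposited log2 fold change was -0.90 (adjusted p = 0.0186). MT-ND4 itself had -0.78. MTCO2P12 averaged 74.9 and 63.8, and MTCO3P12 26.6 and 33.4 normalized counts, neither called. Of 335 rows with the current symbol of a nuclear copy, 274 were at 0 in both groups, 17 were tested, 1 was called lower and 0 higher, against 23.6% called in either direction over all tested genes. Reads can be shared between a mitochondrial gene and a copy this similar, so the copies are not separate measurements, and the sources used here do not state how multiply mapped reads were treated. Summed over all copies, the group means were 15610 and 11439 normalized counts, small beside those of the mitochondrial genes.

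Library values could be had for 4 mRNAs. The flotillin counts of MT-ATP8, MT-ND3 and MT-ND4L are single solutions. Their control counts, and both groups of MT-ND6, are the only set among 3 to 7 fitting ones in which no library falls under 0.35 of the group mean, a condition that 97.9% of control and 98.8% of flotillin genes with means of 5000 to 20000 meet. That limit was set after other limits had been tried on these data, so those values are candidates, not solutions. MT-ATP8 was at 32706, 41249 and 23983 normalized counts in control libraries 1 to 3 and at 18827, 16286 and 12350 in flotillin libraries. The groups did not overlap, and library 3 was lowest in both. MT-ND4L was at 42326, 50652 and 30852 in control and at 30670, 21515 and 17539 in flotillin libraries, again without overlap, though the highest flotillin value is only just under the lowest control value. MT-ND3 was at 38904, 47214 and 24462 in control and at 25335, 29075 and 17074 in flotillin libraries. Here the groups overlapped, since control library 3 lay under flotillin libraries 1 and 2. MT-ND6 was at 33109, 39987 and 26964 in control and at 37412, 32807 and 20204 in flotillin libraries, overlapping widely. How often the groups do not overlap over all genes was not counted, so a lack of overlap singles out no gene here or below.

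Fitted with limma together with the other 15906 genes, MT-ATP8 was called and the other 3 mRNAs were not. The control counts of all 4 are candidates, kept by a limit that bars low libraries and so bounds the spread between them. The errors and adjusted p-values of these 4 mRNAs depend on that limit, and the other fitting sets of counts were not tested. The limma log2 difference of MT-ATP8 was -1.03 ± 0.27 (SE, adjusted p = 0.0303), that of MT-ND4L -0.84 ± 0.28 (adjusted p = 0.0654), of MT-ND3 -0.61 ± 0.31 (adjusted p = 0.179) and of MT-ND6 -0.18 ± 0.28 (adjusted p = 0.664). The fit called 11.2% of its 15910 genes lower. Leaving out any 1 of control libraries 1 and 2 and flotillin libraries 1 to 3 ended the call of MT-ATP8, with adjusted p-values up to 0.0979. Those fits called 4.05% to 7.76% of genes lower, and the log2 difference of MT-ATP8 in them was -1.17 to -0.85. Without control library 3, in a fit that called 18.3% of genes lower, MT-ATP8, MT-ND4L and MT-ND3 were all called (adjusted p = 0.00873, 0.0232 and 0.0380). With library 3 of both groups left out, a fit in which 20.6% of genes were called lower, the adjusted p was 0.00235 for MT-ATP8, 0.0119 for MT-ND4L, 0.0207 for MT-ND3 and 0.835 for MT-ND6. The log2 differences there were -1.07, -0.85, -0.66 and -0.05.

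**Figure D3:**
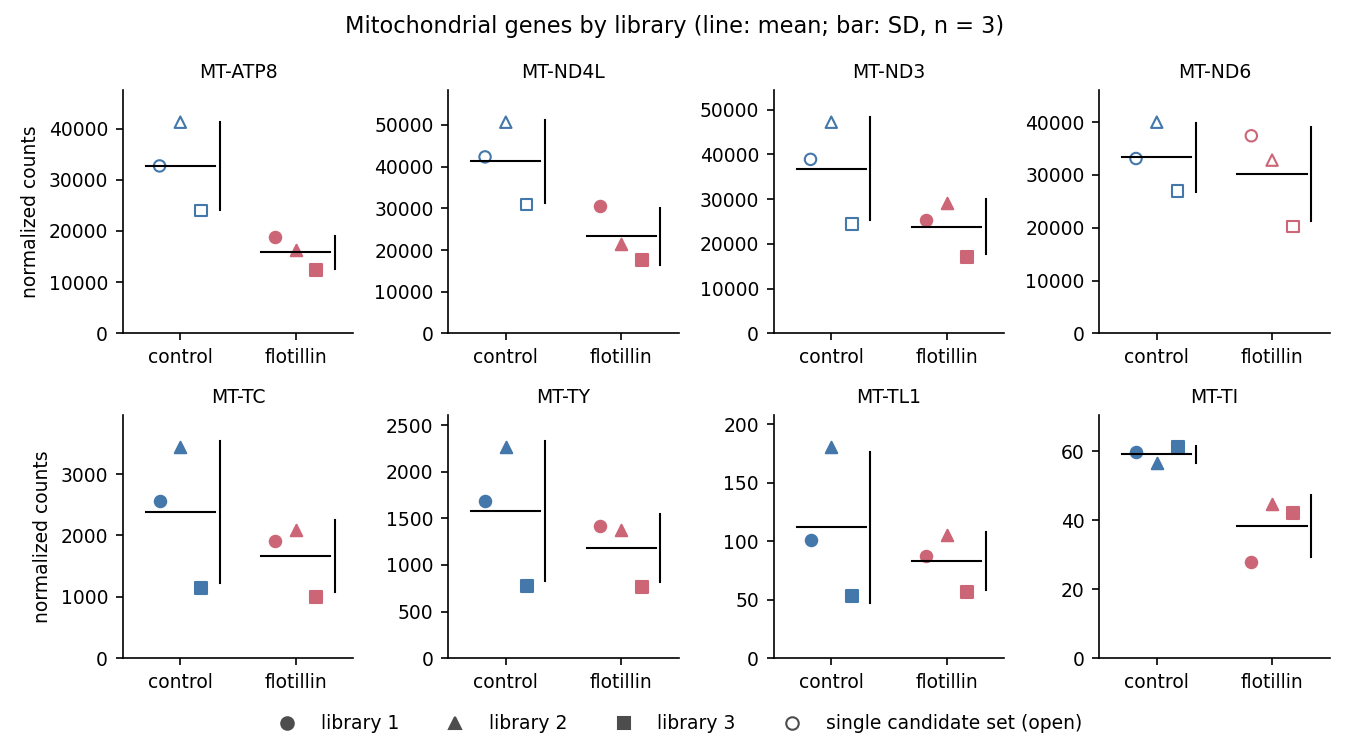
Normalized counts of 4 mRNAs and 4 tRNAs by library, with the mean (line) and SD (bar, n = 3) of each group; circles, triangles and squares are libraries 1, 2 and 3, and open symbols are single candidate sets. Library 3 is lowest in both groups for all panels but MT-TI.

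Most mitochondrial RNAs with library values were lowest in library 3 of both lines. Of the mitochondrial rows with a mean of at least 10 and library values, 7 of 10 in control and 9 of 12 in flotillin cells were lowest in library 3. Library 3 stood at a median of 65.6% and 60.8% of the mean of libraries 1 and 2 over these rows, against 109% and 103% over the 11372 genes above a mean of 100 with library values. The 12 cell cycle genes were higher there, at medians of 590% and 419%. Their part in the mitochondrial values was not tested. Within libraries 1 and 2, flotillin cells held 47.5% of the control level of MT-ATP8, and in library 3 51.5%. For MT-ND4L these values were 56.1% and 56.8%, and for MT-ND3 63.2% and 69.8%. For these 3 mRNAs the difference between the lines was about as large in either set. Each library 3 value, here and below, sets 1 library against 1 that is not its pair, and has no spread. Among the tRNAs, MT-TC was at 66.7% in libraries 1 and 2 and 87.5% in library 3, MT-TY at 70.8% and 98.7%, MT-TL1 at 68.2% and 106%, and MT-TI at 62.5% and 68.9%. The first 3 of these tRNAs were thus closer to the control level, or above it, in library 3. MT-ND6 was at 96.1% in libraries 1 and 2 and at 74.9% in library 3.

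Both rRNAs of the mitochondrial ribosome had lower means in the flotillin line, and neither passed the test in the authors' table of means. MT-RNR1, the small subunit rRNA (648 to 1601), had means of 51479 and 28643 normalized counts, with a deposited log2 fold change of -0.75 (-1.66 to 0.16, adjusted p = 0.238). Its flotillin libraries were at 32699, 39080 and 14148, with library 3 far under the others, and its control libraries could not be solved. MT-RNR2, the large subunit rRNA (1671 to 3229), had means of 304204 and 165126, with -0.77 (-1.73 to 0.20, adjusted p = 0.259). Their implied errors, 0.46 and 0.49, were larger than those of 12 of the 13 mRNAs, MT-CO1 being the exception. In the authors' deposited FPKM table MT-RNR1 went from 2423 to 1297 FPKM with a q of 0.0308. It was the only 1 called of 23 mitochondrial rows tested there, against 17% called over all tested genes of that table.

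Of the 22 tRNA rows, 7 were listed at 0 in every library of both groups: MT-TQ, MT-TA, MT-TN, MT-TS1, MT-TD, MT-TK and MT-TE. The authors' deposited table tested 14 of the others and called 0, with 0 at an unadjusted p under 0.05, and limma called 0 of the 7 in its fit, also with 0 unadjusted, against 23.4% of all genes in that fit. The most abundant were MT-TC, the cysteine tRNA, and MT-TY, the tyrosine tRNA, neighbours on the light strand. MT-TC was at 2553, 3442 and 1140 normalized counts in control and at 1912, 2089 and 997 in flotillin libraries. MT-TY was at 1682, 2267 and 776 in control and at 1414, 1380 and 766 in flotillin libraries. In both genes the control libraries spanned a wider range than the flotillin libraries and enclosed most or all of them.

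The remaining named tRNAs were far lower. MT-TL1, a leucine tRNA, was at 102, 181 and 53.3 in control and at 87.0, 105 and 56.5 in flotillin libraries, with overlap. MT-TI, the isoleucine tRNA, was at 59.8, 56.4 and 61.2 in control and at 28.0, 44.6 and 42.2 in flotillin libraries. Its groups did not overlap, but its deposited adjusted p was 0.212. MT-TH averaged 25.7 and 24.7, MT-TS2 12.5 and 13.6, and MT-TT 6.72 and 14.5 normalized counts. The other 8 tRNA rows above 0 had group means between 1.60 and 9.40. Across the 14 tested tRNAs the median deposited log2 fold change was -0.11, and 5 of the 14 were positive. Without library 3 of both groups limma called MT-TC lower (log2 difference -0.57, adjusted p = 0.0377) and none of the other 6 tRNAs. That fit called 20.6% of all its genes lower, so 1 call among 7 tRNAs singles out no tRNA.

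All 37 mitochondrial rows together held 9.92% of the summed normalized counts in control and 6.22% in flotillin cells. The mRNAs held 8.44% and 5.41%, the rRNAs 1.47% and 0.792%, and the tRNAs 0.0174% and 0.0125%. These are shares of group means and have no replicate spread. Without MT-CO1, the flotillin sum of the other 12 mRNAs was 58.2% of control, and with it the sum of all 13 was 64.8%. Other genes together were 0.07 higher in flotillin cells on the log2 scale, so scaling each group to them lowered every mitochondrial ratio by that amount.

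The authors' deposited FPKM table could not serve as a check for the most abundant genes. It listed MT-CO1, MT-ATP6, MT-CO3 and MT-ATP8 at 0 FPKM in both groups, and MT-CO2, MT-ND4 and MT-ND4L at 0 in control only, all with the status HIDATA, which the software gives to loci with too many fragments to process. These 7 were among 40 rows of that status. No fold change can be read from these entries. Of the 7 MT- rows it did test, it called 0, with 3 at an unadjusted p under 0.05, against 17% called over all its tested genes. MT-ND3 was at 10278 FPKM in control and 6405 in flotillin cells (q = 0.0781), MT-ND2 at 4260 and 2542 (q = 0.0941), MT-CYB at 8411 and 5177 (q = 0.218), and MT-ND1 at 4168 and 2621 (q = 0.156). MT-ND5 was at 3485 and 2753 (q = 0.604) and MT-ND6 at 2807 and 2521 (q = 0.807). All 6 were lower in flotillin cells, as in the table of means. The mitochondrial share of all FPKM was 48.0% and 37.1%, but MT-TC and MT-TY, short genes at 443348 and 295717 FPKM in control, made up most of it.

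Nuclear subunits of the same complexes had mostly higher levels in the flotillin line. Of 81 tested nuclear respiratory chain subunits, 18 were called higher and 1 lower in the authors' deposited table, and 68 had a positive log2 fold change. The called share was 22.2% higher, against 11.6% higher and 12% lower over all tested genes and 16.3% higher over those averaging at least 100 normalized counts. The median log2 fold change of these subunits was 0.48, against 0.11 over the 11463 tested genes that average at least 100 normalized counts. The lists of nuclear genes used here were drawn up with results of these data known, and no test was made of any list.

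**Figure D4:**
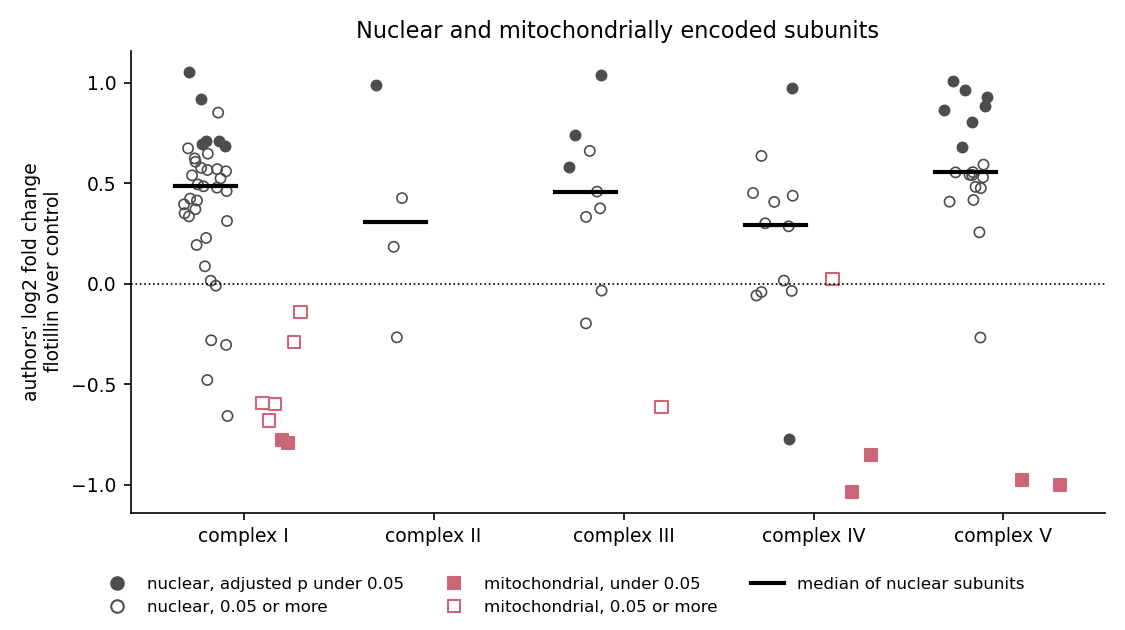
The authors' log2 fold changes of flotillin over control for nuclear (grey circles) and mitochondrially encoded (red squares) subunits by respiratory chain complex; filled symbols have an adjusted p under 0.05 and black lines are medians of the nuclear subunits. Nuclear medians are positive in all 5 complexes, from 0.29 to 0.55, and 12 of the 13 mitochondrial subunits lie under 0.

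In complex I, 6 of 37 nuclear subunits (16.2%) were called higher and 0 lower, with a median log2 fold change of 0.49. Over tested genes averaging at least 100 normalized counts, 16.3% were called higher and 13.8% lower. NDUFA5, an accessory subunit of the matrix arm, was at 749, 775 and 1172 normalized counts in control and at 1593, 1901 and 1717 in flotillin libraries, 1.93-fold higher (adjusted p = 0.00471 in the authors' deposited table). NDUFA11 was 2.19-fold, NDUFA2 1.64-fold and the iron-sulfur subunit NDUFV2 1.63-fold higher. Complex II, which has no mitochondrial subunit, had 1 call among 4 (25%): its membrane anchor SDHC was 2.02-fold higher (adjusted p = 0.000382). In complex III, 3 of 9 (33.3%) were called higher. UQCRB was at 2955, 2941 and 2986 in control and at 6200, 7288 and 5108 in flotillin libraries (2.09-fold). UQCR11 was 1.71-fold and UQCRH 1.51-fold higher.

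Complex IV had 1 call in each direction among 12 (8.33% each), against 16.3% higher and 13.8% lower over tested genes averaging at least 100 normalized counts. COX7A2L, a factor that joins complexes III and IV, was 2.01-fold higher (adjusted p = 0.00112). COX6A1, a structural subunit, was at 2877, 3389 and 2962 in control and at 1544, 2104 and 1678 in flotillin libraries, 1.73-fold lower (adjusted p = 0.00644). In complex V, 7 of 19 (36.8%) were called higher, with a median of 0.55. ATP5G2, one of the genes of the c-ring, rose from 3297 ± 417 to 6360 ± 521 normalized counts (SD, n = 3), ATP5E 2.06-fold, ATP5H 1.99-fold and ATP5S 1.89-fold. The mitochondrial subunits of complex V fell in the same libraries. Respiratory chain assembly factors had 8 calls higher (20.5%) and 1 lower (2.56%) among 39. ATPAF1, a chaperone of ATP synthase assembly, was 1.71-fold, COA3 2.21-fold and COX15, of heme a synthesis, 1.60-fold higher, while BCS1L, which inserts the iron-sulfur protein into complex III, was 1.74-fold lower.

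Genes that maintain and transcribe the mitochondrial chromosome had 2 calls higher (9.09%) and 1 lower (4.55%) among 22. Both shares are under the 16.3% higher and 13.8% lower over tested genes averaging at least 100 normalized counts. RRM2B, a ribonucleotide reductase subunit that supplies nucleotides outside S phase, was at 2231, 2796 and 2194 in control and at 6855, 7646 and 5498 in flotillin libraries, 2.77-fold higher (adjusted p = 1.45e-07 in the authors' deposited table). DGUOK, a mitochondrial nucleoside kinase, was 2.01-fold higher. POLG, the catalytic subunit of the mitochondrial DNA polymerase, was at 3445, 3524 and 2983 in control and at 1984, 2130 and 2257 in flotillin libraries, 1.56-fold lower (adjusted p = 0.0132). TFAM, which packages the chromosome and starts its transcription, was at 973, 1037 and 1707 in control and at 1554, 1560 and 1901 in flotillin libraries (adjusted p = 0.311). POLRMT, the mitochondrial RNA polymerase, was at 661, 450 and 845 in control and at 441, 512 and 543 in flotillin libraries (adjusted p = 0.380). For neither of these did the groups separate.

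Among 31 genes of mitochondrial RNA processing and stability, 1 was called higher (3.23%) and 3 lower (9.68%). Both shares are under the 16.3% higher and 13.8% lower over tested genes averaging at least 100 normalized counts. TRMU, which modifies mitochondrial tRNAs, was at 1525, 1775 and 1360 in control and at 857, 935 and 825 in flotillin libraries, 1.78-fold lower (adjusted p = 0.00240). FASTKD1, of a family of mitochondrial RNA-binding proteins, was 1.80-fold lower, and GTPBP3, a tRNA-modifying GTPase, 1.62-fold lower. HSD17B10, a subunit of mitochondrial RNase P, was 1.99-fold higher. LRPPRC, which stabilises mitochondrial mRNAs, was at 7633, 8649 and 7878 in control and at 7974, 8819 and 7677 in flotillin libraries (adjusted p = 0.961). Its deposited log2 fold change was 0.02 with an implied error of 0.20.

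Mitoribosomal proteins, which form the ribosome inside the organelle, and import proteins were called higher about as often as other genes or less. Of 83 mitoribosomal proteins 12 (14.5%) were called higher and 0 lower. Over all tested genes 11.6% were called higher, and over those averaging at least 100 normalized counts 16.3% higher and 13.8% lower. The median log2 fold change of the 83 was 0.46 and 77 were positive, against 0.11 and 6453 of 11463 over tested genes averaging at least 100. The called genes included MRPL49 (2.20-fold), MRPS11 (2.22-fold), MRPL54 (2.17-fold) and MRPL40 (1.72-fold). Of 21 mitochondrial tRNA synthetases and related enzymes 5 were higher (23.8%) and 1 lower (4.76%). WARS2 was 2.12-fold, QRSL1 1.88-fold and GARS, which also serves the cytosol, 1.70-fold higher, and VARS2 1.82-fold lower. Import genes had 3 calls higher and 0 lower among 30 (10%), TOMM7 (1.61-fold), TIMM9 (1.59-fold) and TOMM34 (2.15-fold). The median log2 fold change of the 30 import genes was 0.35, and 24 were positive.

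Regulators of mitochondrial biogenesis had 1 call in each direction among 13 (7.69% each), against 16.3% higher and 13.8% lower over tested genes averaging at least 100 normalized counts. PPARGC1B, a transcriptional coactivator of respiratory genes, was at 1464, 2273 and 1118 in control and at 435, 461 and 358 in flotillin libraries, 3.87-fold lower (adjusted p = 1.2e-07 in the authors' deposited table). Its relative PPARGC1A was at 138, 90.9 and 9.87 in control and at 114, 81.1 and 26.7 in flotillin libraries (adjusted p = 0.970), lowest in library 3 of both groups. SIRT1, a deacetylase of PPARGC1A, was 1.61-fold higher. Among 17 genes of the mitochondrial stress response 1 was higher (5.88%) and 2 lower (11.8%), again under those shares. ATF5, a transcription factor of that response, was 2.06-fold higher, and GDF15 and TRIB3 were 2.26-fold and 1.65-fold lower.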

How the data were processed

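The authors deposited 2 tables of the comparison. The submitters' processing notes name HISAT2 2.1.0, HTSeq 0.9.1, DESeq2 1.18.1 and the GRCh37 build. The first table holds, per the file headers and values, a signal (the mean size-factor-normalized count of each group) and the authors' log2 fold change, p-value and adjusted p-value. The second holds the authors' FPKM, log2 fold change, test score and q-value, per the file headers. Genes were named by identifier, and 41827 identifiers matched a current symbol. Gene lengths and sequences are from GENCODE in GRCh38.

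Each mean, deposited to 15 significant digits, was solved for 3 whole-number counts divided by size factors. Counts were single for 99.74% of control and 99.72% of flotillin means, the lowest mean without a single solution being 20960. limma 3.58.1 (R 4.3.3, trend and robust) was fitted on log2(normalized count + 1) for 15906 genes with solved counts and a minimum mean of 10, with Benjamini-Hochberg adjustment, and repeated with 4 genes of candidate counts added. On simulated data the search returned the exact counts for 100% of means below 20000 in each group, which does not cover the candidate counts. The fit called 77% of simulated 2-fold changes and 100% of 4-fold changes, and 5.35% of its calls were false. The main call is the authors' adjusted p under 0.05. Members, lists and limits were chosen with earlier results of these data known. All 13 mRNAs and 2 rRNAs were named, tRNAs with a mean of at least 10, up to 4 genes with the smallest adjusted p per nuclear list plus TFAM, POLRMT, LRPPRC and PPARGC1A, and nuclear copies by mean. MTND4P12 and the copies named by identifier were found by matching chosen after their values were seen. Biopython 1.88, scipy 1.17.1, pandas 2.3.3 and numpy 2.4.6 ran under Python 3.11.15, and matplotlib 3.10.9 drew the figures.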

Additional observations from a re-analysis of the deposited data

How the results depend on the processing

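Every fold change of the 13 mRNAs, 2 rRNAs and MTATP8P2 except that of MT-CO1 kept its direction with a pseudocount of 1 or 10, recentred on the median gene (a shift of 0.12 on the log2 scale over 11463 genes) or scaled to the other genes (0.07). MT-CO1 turned to -0.0103 when recentred. It would be -0.48 without control library 2 if that library held no count, which 1 of the 2112 sets of counts that fit gives. Of the 5 MT- rows called, 5 remained in number with p readjusted over genes with a mean of at least 10. With p readjusted over all 28838 genes with a p, 2 remained (MT-CO2 and MT-ATP6). The Tuxedo table called 0 MT- rows, but all 5 have the status HIDATA there and were not tested, so it cannot show whether they remain. In the readjustment over all 28838 genes MT-CO3, MT-ND4L and MT-ND4 had adjusted p-values of 0.0518, 0.0630 and 0.0694. MT-ATP8, which is not among the 5 by symbol, passed it at 0.00735. The mitochondrial share was 48.0% and 37.1% in FPKM, where HIDATA rows listed at 0 add nothing to it. limma on the 7 tRNAs with single solutions called 0 with each library left out in turn (range 0 to 0), 1 without library 3 of both groups, and 1 of 11 with the candidate counts. The fit without library 3 of both groups called 20.6% of all its genes lower. With candidates, leaving out 1 library gave 0 to 3 calls, and 999 to 6407 over all genes.

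Over all nuclear lists 51 of 337 genes (15.1%) were called higher, against 16.3% over tested genes averaging at least 100, and 10 lower. The Tuxedo table called 23 higher, limma without library 3 of both groups 145 higher and 19 lower, and the table of means at a mean of at least 1000 gave 28 higher. For respiratory chain subunits the 18 called higher became 7 in the Tuxedo table and 47 in limma without library 3, a fit that called 7033 of 15906 genes, 23.7% higher and 20.6% lower. By the symbols in the file 0 nuclear copies were called, and by identifier 1. The added alternatives (candidates, library 3, control library 2 for MT-CO1, identifiers, a mean of at least 1000) were chosen after seeing the data. No paired analysis was possible because the deposited columns are group means and the recovered libraries carry no replicate numbers. For 9 of the 13 mRNAs no library values were solved, so they rest on the authors' test alone.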
